A study of Oryza longistaminata with 15 samples.

Results

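A set of 3 genes of the gibberellin pathway was followed across the tissues of *O. longistaminata*, a wild rice that spreads by underground stems called rhizomes. The genes are Os02g17780 on chromosome 2, annotated as ent-kaurene synthase A, Os01g55240 on chromosome 1, annotated as a gibberellin 2-beta-dioxygenase, and Os06g51320 on chromosome 6, annotated as a gibberellin-regulated protein. Each is represented by 1 probe set (Os.16326.1.S1_at, Os.21634.1.S1_at and Os.21805.1.S1_s_at), and these 3 of the 57194 rice probe sets on the array were chosen because the paper's tables list them under these gibberellin annotations. No genome came with the files, so neither positions within the chromosomes nor sequences are given.

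Transcripts were profiled on 15 Affymetrix rice arrays, a single array for each sample, in wild type plants grown in a greenhouse and sampled while they were actively forming tillers. The tissues were rhizome tip (RT, the distal 1 cm of young rhizomes), shoot tip (ST, the distal 5 mm of tillers stripped of their leaves), rhizome internode (RI), shoot internode (SI) and young leaf (YL), with 3 biological replicates each. The sample records place the replicates on individual plants whereas the paper describes material kept as a single plant, so the p-values measure the spread among these samples, which may be partly technical. Signals are linear intensities after scaling of all arrays together, and the number of arrays limits the precision.

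Gibberellins are plant growth hormones that drive cell elongation and division in stems. In the plastid, ent-copalyl diphosphate synthase and ent-kaurene synthase make ent-kaurene, which is oxidised to ent-kaurenoic acid and then to the first gibberellin, and soluble GA 20-oxidases and GA 3-oxidases complete the bioactive forms. GA 2-oxidases inactivate gibberellins, and at the shoot apex of grasses they are known for keeping bioactive hormone out of the meristem. The hormone acts through a receptor that removes DELLA repressors, after which target genes such as those for GAMYB transcription factors and small cysteine-rich gibberellin-regulated proteins respond.

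Detection was judged against a cutoff of 49.6, which 95% of the signals of the 64 reporter controls did not exceed. With limma, 21303 probe sets detected by every array of some tissue were tested, and differences over 2-fold with an adjusted p below 0.05 were called. The tips need a caution before any direction is given. All 424 probe sets of the paper's table of tip differences had a printed direction that equalled ST-labelled over RT-labelled arrays, and 0 had the opposite, and Os02g17780, which the paper lists as enriched in ST, was highest on the RT-labelled arrays. The tips are therefore called by their sample labels throughout, the directions below oppose those of the paper, and which arrays hold rhizome tips is not settled. The 19 green-tissue probe sets (chlorophyll a-b binding proteins and the Rubisco small subunit) had a mean log2 signal of 5.58 ± 0.22 (SD, n = 3) on the ST-labelled, 8.39 ± 0.10 on the RT-labelled, 6.23 ± 0.09 on the RI, 10.68 ± 0.19 on the SI and 11.80 ± 0.23 on the YL arrays. Both probe sets of OSH1, a KNOX gene of the shoot meristem, were above the cutoff in both tips and both internodes and below it in YL. All 4 YABBY probe sets, markers of young lateral organs, were above it in ST-labelled and 3 of them in RT-labelled tips. The green-tissue and YABBY probe sets came from the paper's lists of tissue differences, chosen on these same arrays. Their differences between tissues are therefore partly set by that choice and do not settle which tip is which. Among the internodes, RI replicate 1 and SI replicate 1 deviated together from their tissue means, with a correlation of residuals of 0.62 over the probe sets, the highest of 30 such pairs.

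At the cutoff of 49.6, Os02g17780, the ent-kaurene synthase A gene, was detected on the RT-labelled tips alone. Ent-kaurene synthase A is the older name of ent-copalyl diphosphate synthase, which catalyses the first committed step of gibberellin synthesis. Its signals were 54.6, 70.8 and 80.4 on the RT-labelled arrays and 45.1, 41.9 and 25.3 on the ST-labelled arrays. All 3 RT-labelled arrays lay just above the cutoff, and all 3 ST-labelled arrays lay below it without overlap. The internodes were lower still, at 4.98, 13.5 and 6.91 in RI and 15.7, 19.6 and 11.7 in SI. In YL they were 8.37, 14.5 and 7.12. The mean of 68.6 ± 13.1 (SD, n = 3) on the RT-labelled arrays stood beside 37.4 ± 10.6 on the ST-labelled arrays, and the RI, SI and YL arrays together lay between 4.98 and 19.6.

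Because this gene was chosen for its level in that tip, its differences from the other tissues are given without a test. They came to a log2 difference of 0.90 (SE 0.39) between RT-labelled and ST-labelled tips, 3.13 relative to RI, 2.14 relative to SI and 2.83 relative to YL. These log2 differences rest on signals below the cutoff, and against the cutoff itself the RT-labelled tips were at least 1.37-fold higher than each other tissue. RI, SI, YL and the ST-labelled tips were all below the cutoff on every array, so no fold is given among them.

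**Figure D1:**
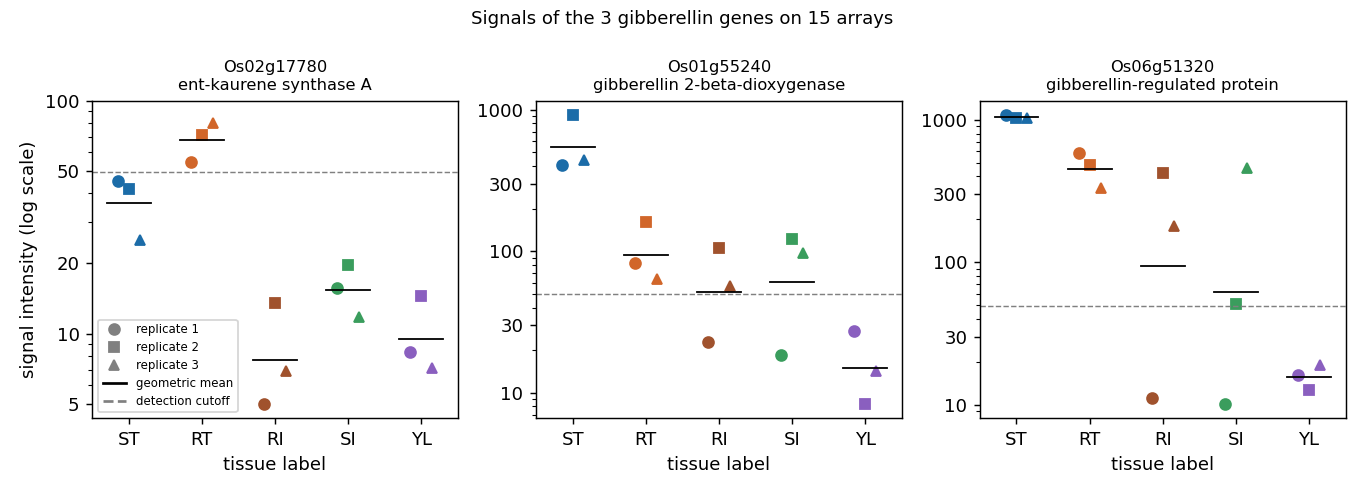
Signal intensity (log scale, a separate scale for each gene) of the 3 gibberellin genes on each array, by tissue label, with the geometric mean of 3 arrays as a bar and the cutoff of 49.6 as a dashed line. Os02g17780 exceeded the cutoff on the RT-labelled arrays, Os01g55240 and Os06g51320 were highest on the ST-labelled and below the cutoff on the YL arrays, and replicate 1 of RI and of SI lay under the cutoff for both.

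Os01g55240, the gibberellin 2-beta-dioxygenase that inactivates the hormone, was highest on the ST-labelled tips, intermediate on the RT-labelled tips and internodes, and below the cutoff in YL. Its signals were 405, 918 and 442 on the ST-labelled arrays and 81.9, 161 and 63.9 on the RT-labelled arrays. Every ST-labelled array exceeded every RT-labelled array. The RI signals were 22.9, 105 and 56.8 and the SI signals 18.4, 123 and 97.4, so each internode had 2 of 3 arrays above the cutoff and its replicate 1 below it. The YL signals were 27.3, 8.35 and 14.3, all below the cutoff.

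The 2 tips differed by 5.80-fold in geometric mean, a log2 difference of 2.54 (SE 0.75) in favour of the ST-labelled tips, which is a description since the probe set was taken from the table of tip differences. The same ST-labelled signals enter the comparisons with the other tissues, which are therefore also given without a test. The ST-labelled tips were 9.08-fold higher than SI (log2 difference 3.18, SE 0.75) and 10.6-fold higher than RI (log2 difference 3.41), and no arrays overlapped. Without SI replicate 1 the log2 difference from SI was 2.33, and over the fits that left out 1 array that from RI ran from 2.83 to 3.93. Compared with YL they were at least 11.0-fold higher.

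Below the ST-labelled tips the order of levels was less clear. The RT-labelled arrays had entered the choice of the gene as the lower tip. The RT-labelled tips overlapped with both internodes, at 1.84-fold over RI (log2 difference 0.88, 95% confidence interval -0.74 to 2.50, limma adjusted p = 0.37) and 1.57-fold over SI (log2 difference 0.65, interval -0.97 to 2.27, limma adjusted p = 0.52). RI and SI overlapped too (log2 difference -0.23, interval -1.85 to 1.39, limma adjusted p = 0.97). The RT-labelled tips were at least 1.91-fold above YL without overlap (limma adjusted p = 0.0087). SI passed the test against YL (log2 difference 2.02, limma adjusted p = 0.045) and RI did not (log2 difference 1.79, limma adjusted p = 0.065). Replicate 1 of SI and of RI lay within the YL range, and RI and SI were not called different from each other. The log2 differences from YL rest on YL signals below the cutoff, and against the cutoff SI was at least 1.22-fold and RI at least 1.04-fold higher. Both bounds were under the 2-fold minimum, as was the 1.91-fold of the RT-labelled tips. The call of SI against YL was lost in 13 of 23 alternative settings, among them quantile normalisation (adjusted p = 0.051), and RI against YL became a call without RI replicate 1 (log2 difference 2.38, limma adjusted p = 0.027).

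Os06g51320 encodes a gibberellin-regulated protein of the GASA type, a family of small secreted cysteine-rich proteins whose transcripts respond to the hormone. It was even across the ST-labelled tips, lower on the RT-labelled tips, scattered in the internodes and undetected in YL. Its signals were 1080, 1031 and 1030.2 on the ST-labelled arrays and 588, 479 and 332 on the RT-labelled arrays. The tips did not overlap, and the ST-labelled mean of 1047 ± 28 (SD, n = 3) had the smaller spread. In YL the signals were 16.1, 12.6 and 18.9, all below the cutoff.

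The internode arrays of Os06g51320 covered almost the whole range of the other tissues. RI gave 11.1, 422 and 179 and SI gave 10.1, 50.7 and 459. In both internodes replicate 1 was below the cutoff and below every YL array, while RI replicate 2 and SI replicate 3 reached the range of the RT-labelled tips. The means of 204 ± 207 in RI and 173 ± 248 in SI (SD, n = 3) therefore had spreads as large as themselves. YABBY signals varied over the same arrays, with a mean log2 signal of 3.76, 6.24 and 5.07 in RI and 3.86, 5.45 and 4.42 in SI for replicates 1, 2 and 3. None of the 4 YABBY probe sets was above the cutoff on all 3 arrays of RI or of SI. Replicate 1 was again the lowest of each internode for this list. Replicate 2 was its highest in both, whereas Os06g51320 was highest in replicate 3 of SI. OSH1 was at 9.33, 8.93 and 9.23 in RI and 8.78, 9.40 and 8.77 in SI. The part of lateral organ tissue in these internode signals was not tested, and in bulk tissue fewer expressing cells and less RNA per cell cannot be told apart.

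The differences of Os06g51320 between ST-labelled tips and the other tissues chose the probe set and are a description: 2.31-fold over RT-labelled tips (log2 difference 1.20), 11.1-fold over RI, 17.0-fold over SI and at least 21.1-fold over YL. Their standard error of 1.29 on the log2 scale carries the spread of the internodes, since 1 variance was fitted over all tissues. Leaving out SI replicate 1 brought the log2 difference from SI down from 4.08 to 2.78, and leaving out SI replicate 3 brought it up to 5.53. Leaving out RI replicate 1 brought the difference from RI down from 3.47 to 1.93, and leaving out RI replicate 2 brought it up to 4.56.

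Among the comparisons that did not choose it directly, the RT-labelled tips were at least 9.16-fold above YL (log2 difference 4.86, SE 1.29, limma adjusted p = 0.0063), with no overlap. The RT-labelled arrays had entered the choice of this gene as the lower tip. The paper's enriched genes were also first screened over all tissues together, so these p-values are not fully independent of the choice. RT-labelled tips minus RI gave a log2 difference of 2.27 (95% confidence interval -0.53 to 5.06, limma adjusted p = 0.18), which was 0.73 without RI replicate 1 and 3.35 without RI replicate 2. RT-labelled tips minus SI gave 2.88 (limma adjusted p = 0.095) and 1.57 without SI replicate 1. The latter comparison became a call without SI replicate 3 (log2 difference 4.33, limma adjusted p = 0.014) or without RI replicate 1, which changes only its standard error (limma adjusted p = 0.037). RI minus SI was 0.61 (interval -2.18 to 3.40, limma adjusted p = 0.94). Neither internode passed against YL with all arrays (RI: log2 difference 2.59, limma adjusted p = 0.11, and SI: 1.98, limma adjusted p = 0.23). RI passed without its replicate 1 (log2 difference 4.14, limma adjusted p = 0.010) and SI without its replicate 1 (log2 difference 3.29, limma adjusted p = 0.040).

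Os01g55240 and Os06g51320 followed each other over the arrays, with a Pearson r of 0.88 between their log2 signals over the 15 arrays. The arrays share their tissues, and RI replicate 1 and SI replicate 1 were low for both genes, so r is a description and carries no p. Os02g17780 was less like either of them, with r of 0.58 to Os01g55240 and 0.66 to Os06g51320. Its signals exceeded the cutoff on the RT-labelled arrays alone, so these r rest largely on signals below it.

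**Figure D2:**
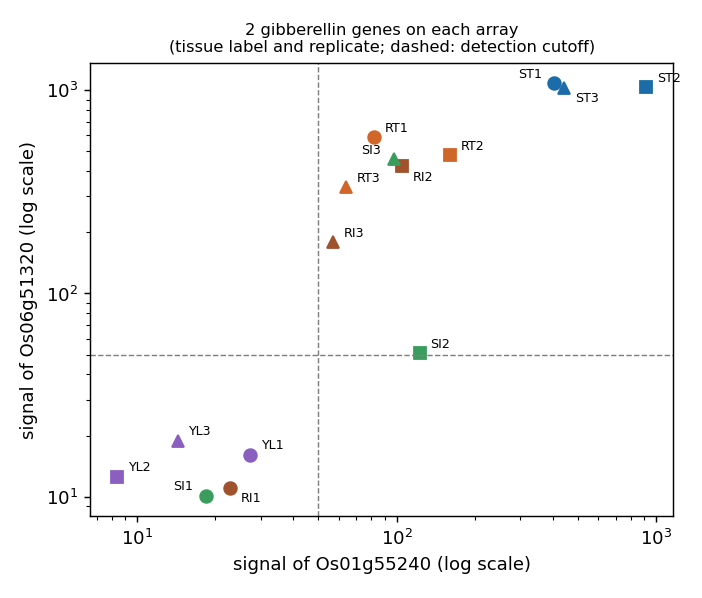
Signal of Os01g55240 (horizontal, log scale) against that of Os06g51320 (vertical, log scale) on each of the 15 arrays, with the cutoff of 49.6 dashed on both axes. The ST-labelled arrays sat at the top right, the YL arrays with RI replicate 1 and SI replicate 1 at the bottom left, and SI replicate 2 had 123 for the first gene and 50.7 for the second.

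Several annotated genes had patterns closer to the 3 genes than these had to each other. For Os01g55240 they were Os11g10590, a hypothetical protein (r = 0.96 over 15 arrays), Os01g03360, a Bowman-Birk trypsin inhibitor (r = 0.94), and Os10g05750, a proline-rich protein (r = 0.94). For Os02g17780 they were Os01g65460, a beta-galactosidase, Os06g10410, a mechanosensitive ion channel family protein, and Os09g15700, a leucine-rich repeat protein, each at r = 0.94. For Os06g51320 they were Os05g50960, a polygalacturonase family protein (r = 0.95), Os04g42860, a GDSL-like lipase (r = 0.95), and Os01g0914300, which has a plant lipid transfer domain (r = 0.95). The number of the other 21302 tested probe sets with r above 0.9 was 25 for Os01g55240, 193 for Os02g17780 and 233 for Os06g51320. For Os02g17780, detected on the RT-labelled arrays alone, the r values and this number rest largely on signals below the cutoff. Among all of them the named genes ranked 1, 3 and 4 for Os01g55240, 6, 8 and 9 for Os02g17780, and 15, 20 and 22 for Os06g51320. The probe sets between had no usable name. The names came from the paper's lists of tissue differences, chosen on these same arrays, so the likeness is partly set by that choice.

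The rest of the pathway was sought by a list of 33 loci and by annotation, and most loci had no name that could be matched to a probe set. With the 3 genes above, 8 probe sets of 7 genes were found, all 8 were above the cutoff in at least 1 tissue, and 7 of the 8 are in the paper's tables, so their counts are no independent evidence of a direction. GA20OX3, which no table lists, encodes a GA 20-oxidase of late hormone synthesis and was highest in the internodes. Its signals were 786, 466 and 888 in RI and 627, 579 and 470 in SI. On the ST-labelled arrays they were 109, 185 and 86.0 and on the RT-labelled arrays 112, 121 and 80.7. Every internode array exceeded every tip array, and in YL, at 74.8, 39.0 and 27.2, 1 array of 3 was above the cutoff.

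GA20OX3 was 6.67-fold higher in RI than in RT-labelled tips (log2 difference of RT-labelled minus RI -2.74, SE 0.39, limma adjusted p = 1.6e-04) and 4.61-fold higher in SI than in ST-labelled tips (log2 difference -2.21, limma adjusted p = 0.0010). With the tips exchanged, RI stood 5.72-fold above ST-labelled tips (limma adjusted p = 4.4e-04) and SI 5.38-fold above RT-labelled tips (limma adjusted p = 4.5e-04), so this contrast does not depend on which tip is which. Leaving out any 1 array gave adjusted p between 9.1e-05 and 0.0013 for RT-labelled tips against RI and between 5.2e-04 and 0.0064 for ST-labelled tips against SI. The 2 internodes overlapped (log2 difference of RI minus SI 0.31, 95% confidence interval -0.53 to 1.16, limma adjusted p = 0.88), as did the 2 tips (ST-labelled minus RT-labelled 0.22, interval -0.62 to 1.07, limma adjusted p = 0.92). The log2 difference of RT-labelled tips minus RI, less that of ST-labelled tips minus SI, was -0.53 (limma adjusted p = 0.73), which was not called. Against YL, with 1 of its 3 arrays above the cutoff, RI was 16.0-fold and SI 12.9-fold higher (limma adjusted p = 6.3e-06 and 2.3e-05). ST-labelled tips were 2.80-fold (limma adjusted p = 0.0059) and RT-labelled tips 2.40-fold higher than YL (limma adjusted p = 0.015), and the latter call was lost without YL replicate 3 (log2 difference 0.93, limma adjusted p = 0.069).

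The remaining 4 probe sets came from the young leaf lists of the paper or share a gene with one that did, so their levels in YL are described without a test. Os06g0110000 encodes ent-kaurenoic acid oxidase, which makes the first gibberellin of the pathway, and had 1145, 802 and 1054 in YL. On the other 12 arrays it lay between 57.2 and 181, without overlap. Os01g59660 encodes the transcription factor GAMYB, an activator of hormone-responsive genes, and had 344, 281 and 388 in YL against 93.3 to 263 elsewhere. Os10g22430, annotated as chitin-inducible gibberellin-responsive protein 2, is of the GRAS family of regulators. Its x-suffixed probe set gave 1683, 1181 and 1776 in YL against 248 to 789 elsewhere, and its other probe set gave 555, 470 and 484 against 56.7 to 283. Both had their SI maximum in replicate 1, at 789 and 194, but they disagreed in ST-labelled replicate 3, the lowest of its tissue for the first (279) and the highest for the second (283). These suffixes, x and s, mark probes shared between transcripts, so signals of related family members may enter the x-suffixed probe set of Os10g22430, that of GAMYB, which is also x-suffixed, and the s-suffixed one of Os06g51320.

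**Figure D3:**
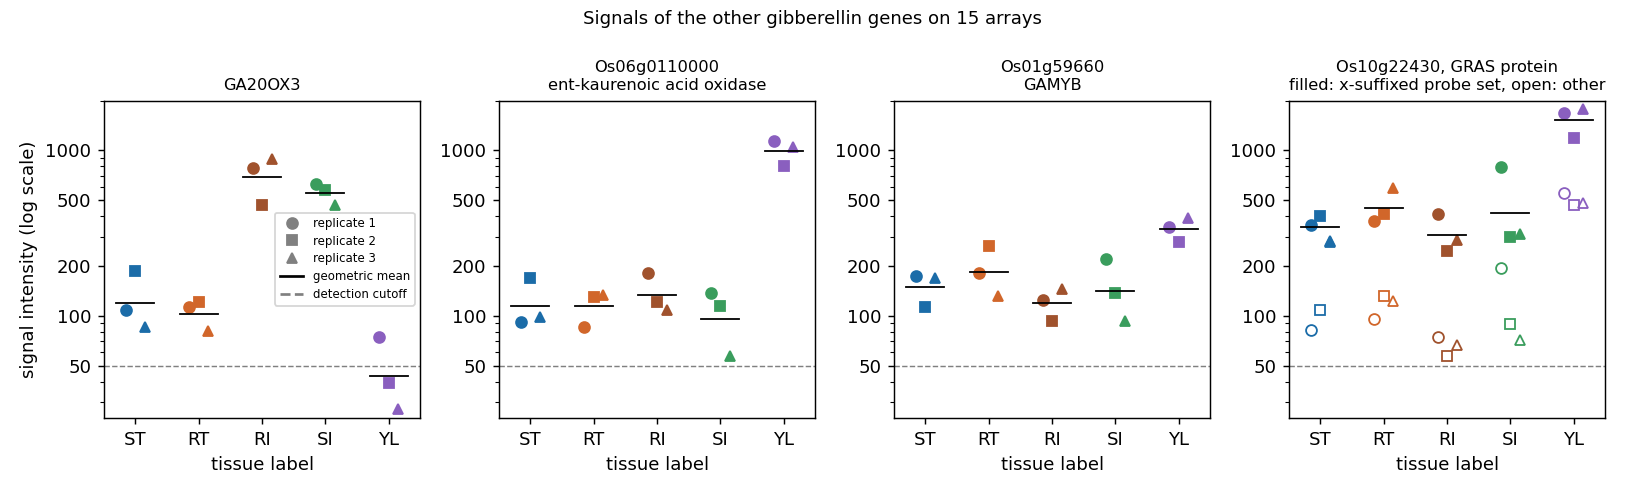
Signal intensity (log scale) of the other 5 gibberellin probe sets on each array, by tissue label, with the geometric mean as a bar (for filled symbols) and the cutoff of 49.6 dashed. GA20OX3 lay between 466 and 888 on all internode arrays and at or below 185 on all tip arrays, while the other genes were highest in YL.

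Counted over the 8 probe sets, none was called between the ST-labelled and RT-labelled tips by limma, where 0.864% of all tested probe sets were called. An unadjusted limma p under 0.05 was reached by 2 of 8, Os01g55240 and Os02g17780, both chosen for a tip. Between RI and SI the count was also 0, against 1.90% of all tested probe sets. The 1 of 8 with an unadjusted p under 0.05 was Os02g17780, below the cutoff on every RI and SI array. With differences that chose a gene or had both tissues below the cutoff left out, 0 of 5 between the tips and 0 of 7 between the internodes had such a p. RT-labelled tips against RI gave 1 higher and 1 lower, beside 18.5% and 13.0% of all tested probe sets. ST-labelled tips against SI gave 3 higher and 1 lower, beside 11.4% and 13.9%. The higher ones were Os02g17780 in the first, and Os01g55240, Os06g51320 and Os02g17780 in the second, which are genes chosen for a tip, and Os02g17780 was below the cutoff on every ST-labelled and SI array. Nothing is read from those calls. Without the differences that chose a gene and those with both tissues below the cutoff, 7 probe sets remained for RT-labelled tips against RI and 5 for ST-labelled tips against SI, and the called one was GA20OX3, lower in the tips, in each. The median log2 difference of all 8 in these 4 comparisons was 0.12, -0.24, 0.73 and 0.30, beside -0.09, -0.08, 0.09 and -0.04 over all tested probe sets. These medians include the differences that chose a gene and those with both tissues below the cutoff, so nothing is read from them either.

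With the tips exchanged the counts were 2 higher and 1 lower for ST-labelled tips against RI, beside 13.1% and 11.6% of all tested probe sets. They were 1 higher and 1 lower for RT-labelled tips against SI, beside 15.4% and 14.0%. The lower one was GA20OX3 in both, and the higher ones were genes chosen for a tip. For ST-labelled tips against RI they included Os02g17780, which was below the cutoff on every array of both tissues. Against YL the counts over all 8 were 4 higher and 3 lower for RT-labelled tips, beside 22.9% and 22.2% of all tested probe sets, and 4 higher and 4 lower for ST-labelled tips, beside 22.1% and 23.3%. Those higher in ST-labelled tips included Os02g17780, below the cutoff on every ST-labelled and YL array. RI had 1 higher and 4 lower, beside 16.5% and 21.0%, and SI had 2 higher and 4 lower, beside 16.2% and 17.0%. All those lower than YL were among the 4 probe sets described for their YL levels above. Without the differences that chose a gene, which leaves those 4 probe sets out, RT-labelled tips were higher in 3 of 3 (Os01g55240, Os06g51320 and GA20OX3). ST-labelled tips were higher in 1 of 1 (GA20OX3), RI in 1 of 3 (GA20OX3) and SI in 2 of 3 (GA20OX3 and Os01g55240). Every probe set called lower than YL was thereby left out, so nothing is read from these directions.

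**Figure D4:**
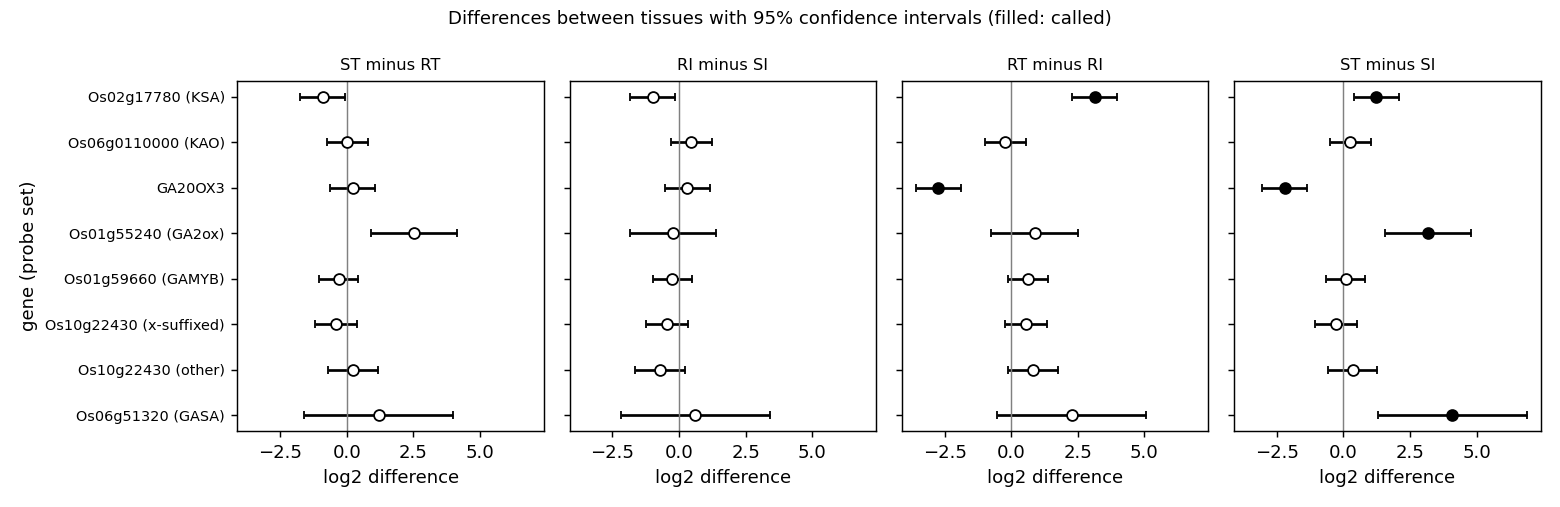
Log2 difference between tissues with its 95% confidence interval for the 8 gibberellin probe sets, from ST-labelled minus RT-labelled tips, RI minus SI, RT-labelled tips minus RI and ST-labelled tips minus SI, with differences past the thresholds filled, those that chose a gene included. GA20OX3 lay at -2.74 and -2.21 in the tip against internode comparisons, and no difference was called between the 2 tips or between the 2 internodes.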

How the data were processed

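Per the authors' methods, biotin-labelled cRNA from 5 µg of total RNA was hybridised, images were read with GCOS 1.4, and dChip put the arrays on a common scale. The deposited intensities are linear and come without detection calls, with array medians from 21.9 to 23.6 and 17943 to 18834 rice probe sets per array above the cutoff. Here 187 control probe sets were removed from 57381, signals under 1 were set to 1, and log2 values of the 21303 tested probe sets were fitted in limma 3.58.1 (R 4.3.3) with 1 mean per tissue over 15 arrays and Benjamini-Hochberg adjustment. The 2-fold and 0.05 thresholds are those the methods give for the tips and were applied here to every pair of tissues. The smaller fold of the methods for enriched genes and their SAM and rank tests were not used. Fitting was tested on simulated data.

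A fold against a tissue with all arrays below the cutoff is the geometric mean over the cutoff, given as at least. The members, lists and tests were chosen with earlier results of these data known. Named genes were the 3 members, the 2 brightest listed probe sets of each role (here all listed ones) and the 3 annotated probe sets most correlated with each member. Locus names came from the paper's tables (2663 probe sets) and the platform annotation (1 symbol for 22436, several for 95). Platform symbols that were only gene IDs beginning with LOC gave no name, nor did several symbols for 1 probe set. Replicate numbers were not used to pair the arrays in the main fit: 6 of 30 same-number pairs had residual correlations over 0.1 and 7 under -0.1. Between RI and SI they were 0.62, 0.44 and 0.08 for replicates 1, 2 and 3, all positive. Pairs with different numbers were not computed, and whether the internode samples are paired was not tested. Alternatives were quantile normalisation, cutoffs at the 90th and 99th percentiles (29.9 and 62.4), no filter, signals under the cutoff set to it, only the arrays compared, a replicate block, no fold minimum, and each array left out.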

Additional observations from a re-analysis of the deposited data

How the results depend on the processing

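The counts of called gibberellin probe sets stayed within 1.5 times of the reported ones in most settings. With signals under the cutoff set to it, 1 was called between the tips (Os01g55240), 1 instead of 2 between RT-labelled tips and RI, and 4 instead of 7 between RT-labelled tips and YL. With the 99th percentile cutoff, 1 was called between RT-labelled tips and RI, since Os02g17780 was no longer tested. Leaving out each array in turn gave 0 to 0 calls between the tips and between the internodes, 2 to 2 for RT-labelled tips against RI, 2 to 4 for ST-labelled tips against SI (2 without ST replicate 1 or 2), 6 to 8 and 7 to 8 for RT-labelled and ST-labelled tips against YL, 5 to 7 for RI against YL, and 4 to 7 for SI against YL (4 without SI replicate 3). With the replicate block the counts were 0, 0, 2, 4, 7, 8, 5 and 6 in that order, and no count changed.

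Of the tested single differences under the alternatives, 774 kept direction and call, 18 lost the call, 7 gained one and 6 reversed. The reversed ones were not called. Of the differences given without a test, 261 moved by less than their standard error or not at all, and 11 by more. Settings that kept the signals of both compared tissues, such as leaving out an array of another tissue, could not move a difference. They could change only its standard error or its call. These totals include them and are therefore no measure of robustness. Over the fits that left out 1 array, RI minus SI ran from -1.09 to 0.36 for Os01g55240 (positive without RI replicate 1, at 0.28 if SI replicate 2 was dropped and at 0.11 if SI replicate 3 was) and from -0.69 to 2.15 for Os06g51320 (negative without SI replicate 1, and -0.47 if RI replicate 2 was dropped). RT minus SI of Os01g55240 ran from -0.21, without SI replicate 1, to 1.16. With signals set to the cutoff, GA20OX3 in RT-labelled tips against YL fell under the fold minimum (log2 difference 0.86) and Os01g55240 lost its call there (limma adjusted p = 0.095). The cause of the other changes was not tested. Signals near the cutoff, above all those of Os02g17780, limit these comparisons.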
